A study of Homo sapiens with 6 samples.

Results

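Transcripts that serve as hosts of microRNAs or small nucleolar RNAs (snoRNAs), and a few nuclear long noncoding RNAs, were followed in myeloma cells exposed to a fragment of the matrix protein HAPLN1. The set held 9 of the 63677 genes counted: the microRNA hosts MIR155HG, MIR17HG and MIR22HG, the snoRNA hosts SNHG1, SNHG15 and GAS5, and the long noncoding RNAs NEAT1, MALAT1 and PVT1. They were chosen by name, with earlier results of these data known, and all 9 had enough reads to be among the 16926 genes tested.

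RNA-Seq was done on RPMI8226, an established wild type human multiple myeloma line. Control cells received GST (glutathione-S-transferase, the fusion partner on its own) and treated cells received GST-PTR1, in which the PTR1 domain of HAPLN1 is joined to GST, both at 100 nM and for 6 hr. Each treatment had 3 biological replicates, 6 libraries in all, from a single line grown in culture, so the p-values below describe the spread between replicates of that line. Libraries held between 15202503 and 44688737 counted reads, and within a treatment they are listed below in ascending order of that total.

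The libraries were made with a strand-specific mRNA kit. Host transcripts are seen by such a library, while mature microRNAs and snoRNAs are too short and were not measured. As the samples are bulk RNA, fewer cells carrying a transcript and less transcript per cell cannot be told apart. All 9 plasma cell markers looked at (SDC1, TNFRSF17, PRDM1, XBP1, IRF4, MZB1, SLAMF7, CD38 and POU2AF1) were above 1 CPM (counts per 1000000 counts) in GST. Their summed level ran from 2151 to 2803 CPM in GST and from 1916 to 2252 CPM in GST-PTR1. The summed T cell list, of which 4 of 5 markers were in the table, ran from 5.33 to 5.63 CPM in GST and from 2.64 to 3.37 CPM in GST-PTR1. The monocyte, stromal and erythroid lists summed to at most 2.89 CPM in any library, and the stromal markers COL1A2, COL3A1 and LUM were at 0. The part of these lists in the results was not tested.

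MicroRNAs are cut from hairpins in longer transcripts, first in the nucleus and then in the cytoplasm, and guide Argonaute proteins to messenger RNAs that pair with their seed, the bases near the 5′ end. MIR155HG, first known as BIC, carries miR-155 and is switched on when B cells, T cells and macrophages are activated. MIR17HG carries the miR-17-92 cluster, which is induced by MYC and amplified in B cell lymphomas. MIR22HG carries miR-22. The snoRNA hosts work differently: their snoRNAs lie in introns, and the spliced remainder of several of them, GAS5 among them, is removed by nonsense-mediated decay. NEAT1 is the scaffold of nuclear paraspeckles, MALAT1 gathers in nuclear speckles, and PVT1 lies next to MYC and is a frequent site of rearrangement in myeloma.

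The mature microRNAs made from the hosts described below are shown because they are what a change in a host could deliver. They are RefSeq sequences on GRCh38.p14, written 5′ to 3′, with the seed (bases 2 to 8) in capitals.
hsa-miR-155-5p: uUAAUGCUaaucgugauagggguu
hsa-miR-17-5p: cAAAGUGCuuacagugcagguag
hsa-miR-20a-5p: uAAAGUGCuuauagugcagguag
hsa-miR-18a-5p: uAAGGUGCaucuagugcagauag
hsa-miR-19a-3p: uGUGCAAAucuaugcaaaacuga
hsa-miR-19b-3p: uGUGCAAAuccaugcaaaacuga
hsa-miR-92a-3p: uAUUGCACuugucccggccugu
hsa-miR-22-3p: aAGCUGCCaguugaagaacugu
hsa-miR-146a-5p: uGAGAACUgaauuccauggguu

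The first comes from MIR155HG, the next 6 from MIR17HG, then 1 from MIR22HG, and the last from MIR3142HG, a host outside the 9 that is taken up below. Within the MIR17HG cluster, miR-17-5p and miR-20a-5p share a seed and differ at 2 of 23 positions. miR-19a-3p and miR-19b-3p share another seed and differ at 1 of 23 positions. miR-18a-5p differs from miR-17-5p at 6 of 23 positions and has a seed of its own, as has miR-92a-3p. On GRCh38.p14 the 6 hairpins of the cluster take up 787 bases, chr13:91350605-91351391. The mature miR-155-5p lies at chr21:25573983-25574006, which is 11838 bases after the RefSeq start of its host, and miR-22-3p lies at chr17:1713914-1713935 on the minus strand. Each of these mature sequences falls inside the RefSeq span of its host.

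Of the 9 transcripts, 5 were higher after GST-PTR1 and none was lower. The 5 were MIR155HG, MIR17HG, SNHG15, SNHG1 and GAS5, and MIR155HG moved by far the most. Differences were tested by edgeR's quasi-likelihood test, p-values were adjusted by Benjamini-Hochberg across every gene tested, and a gene was called at an adjusted p under 0.05. By the same rule 9.15% of all genes tested were called higher and 11.4% lower. With any 1 library left out, 4 were called higher, GAS5 being the one lost. With the added demand of a change of at least 2-fold, 3 of the 9 were called higher (MIR155HG, MIR17HG and SNHG15), against 3.68% of all genes tested. In the reported fit no member had an unadjusted p under 0.05 in the lower direction by edgeR's quasi-likelihood test. NEAT1 came just short of that bound, with a log2 fold change of -0.44 ± 0.20 (SE). DESeq2 and limma voom likewise called 5 higher and 0 lower. A filter of 1 read in any library gave 5 higher and 1, NEAT1, lower. With libraries scaled by their totals in place of TMM factors, 3 were called higher and 1, NEAT1, lower.

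**Figure D1:**
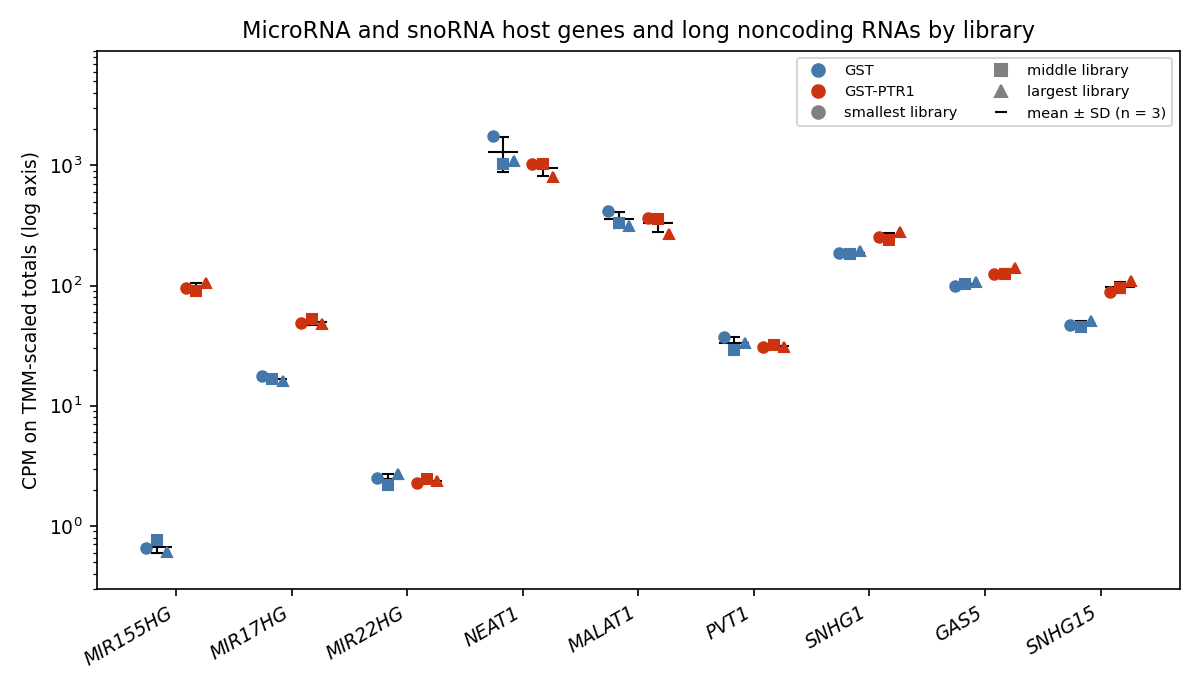
Levels of the 9 transcripts in each library, as CPM on TMM-scaled totals on a log axis. Points are libraries (GST blue, GST-PTR1 red), and black bars are the mean ± SD of 3 libraries. MIR155HG rose from a mean of 0.673 to 96.6 CPM, while the GST and GST-PTR1 points of MIR22HG, NEAT1, MALAT1 and PVT1 overlap.

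MIR155HG (ENSG00000234883, a noncoding gene on the plus strand at chr21:26934221-26947480 of GRCh37) went from barely detected to abundant. The 3 GST libraries held 11, 16 and 15 of its reads, and the GST-PTR1 libraries held 2120, 2457 and 4130. On TMM-scaled totals, which the fold changes also use, these are 0.660, 0.757 and 0.601 CPM in GST and 95.1, 89.9 and 105 CPM in GST-PTR1. The 2 treatments were far apart, and the replicates of each stayed close together. The mean was 0.673 ± 0.0789 CPM (SD, n = 3) in GST and 96.6 ± 7.50 CPM (SD, n = 3) in GST-PTR1. The fitted log2 fold change was 7.16 ± 0.16 (SE), a 143-fold rise, with an adjusted p of 1.02e-09 by edgeR's quasi-likelihood test. Among the 16926 genes tested it ranked 2 by p-value and 20 by the size of the increase. Under all 14 alternative settings the log2 fold change stayed between 6.97 and 7.26.

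MIR17HG (ENSG00000215417, plus strand, chr13:92000074-92006833 of GRCh37) rose nearly 3-fold from a level that was already well measured. Its level was 17.5, 16.6 and 16.1 CPM in the GST libraries and 48.6, 52.5 and 47.9 CPM in the GST-PTR1 libraries. Again no GST-PTR1 library came near a GST library. The means were 16.7 ± 0.705 and 49.6 ± 2.49 CPM (SD, n = 3 each). This gave a log2 fold change of 1.57 ± 0.11 (SE), or 2.97-fold, with an adjusted p of 2.16e-06 by edgeR's quasi-likelihood test.

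MIR22HG (ENSG00000186594, minus strand, chr17:1614805-1620468 of GRCh37) was low in both treatments. It stood at 2.52, 2.18 and 2.68 CPM in the GST libraries and at 2.29, 2.45 and 2.36 CPM in the GST-PTR1 libraries. The treatments overlapped. A log2 fold change of -0.06 ± 0.19 (SE) was fitted, with an adjusted p of 0.855 by edgeR's quasi-likelihood test. Between 42 and 93 reads per library lay behind these values.

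The 3 snoRNA hosts were all called higher, by smaller amounts than the first pair of microRNA hosts. SNHG15, a short-lived transcript that builds up under cell stress (ENSG00000232956, minus strand, chr7:45022622-45026560 of GRCh37) stood at 46.6, 45.2 and 50.7 CPM in the GST libraries and at 88.5, 95.5 and 109 CPM in the GST-PTR1 libraries. Its log2 fold change was 1.04 ± 0.11 (SE), or 2.06-fold, with an adjusted p of 6.86e-05 by edgeR's quasi-likelihood test, and it was called under all 14 alternatives. No GST-PTR1 library reached down to a GST library.

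SNHG1 (ENSG00000255717, minus strand, chr11:62619460-62623386 of GRCh37), whose introns carry several box C/D snoRNAs, stood at 186, 184 and 195 CPM in the GST libraries and at 256, 239.8 and 277 CPM in the GST-PTR1 libraries. Every GST-PTR1 value was above every GST value. Its log2 fold change was 0.45 ± 0.10 (SE), with an adjusted p of 0.00945 by edgeR's quasi-likelihood test. On library totals the difference was 0.25 and was no longer called (adjusted p = 0.0891 by edgeR).

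GAS5 (ENSG00000234741, minus strand, chr1:173833038-173838020 of GRCh37), a host of box C/D snoRNAs named for its build-up in growth-arrested cells, stood at 99.3, 103 and 107 CPM in the GST libraries and at 125, 125 and 139 CPM in the GST-PTR1 libraries. Its treatments did not overlap, and the gap was the smallest among the 5 called. The log2 fold change was 0.33 ± 0.10 (SE), with an adjusted p of 0.0357 by edgeR's quasi-likelihood test. The call was lost when any 1 of the 6 libraries was left out (adjusted p from 0.0629 to 0.0954 by edgeR) and on library totals (log2 fold change 0.13, adjusted p = 0.370 by edgeR).

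NEAT1 (ENSG00000245532, plus strand, chr11:65190245-65213011 of GRCh37) was the most abundant of the 9 by reads. Its level was 1773, 1019 and 1089 CPM in the GST libraries and 1026, 1029 and 801 CPM in the GST-PTR1 libraries. The smallest GST library stood at 1.68 times the mean of the other two, and these overlapped with GST-PTR1. The log2 fold change was -0.44 ± 0.20 (SE), with an adjusted p of 0.144 by edgeR's quasi-likelihood test, and it was -0.15 without that library. On library totals the levels were 1943, 1072 and 1158 CPM in GST and 999.7, 975 and 707 CPM in GST-PTR1. These no longer overlap, and the transcript was then called lower (log2 fold change -0.64, adjusted p = 0.0391 by edgeR). It was also called lower with a filter of 1 read in any library (log2 fold change -0.41, adjusted p = 0.0115 by edgeR). The difference was smaller there than in the reported fit, and its SE was 0.127 in place of 0.202. With this filter the SEs of MALAT1, GAS5 and SNHG1 were 0.125 each, so the call went with a changed estimate of spread. The cause of that was not tested.

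MALAT1 (ENSG00000251562, plus strand, chr11:65265233-65273940 of GRCh37) lies on the same arm close to NEAT1. It stood at 419, 333 and 315 CPM in the GST libraries and at 363, 356 and 270.1 CPM in the GST-PTR1 libraries. The smallest GST library was again the highest, 1.29 times the mean of the other two. The log2 fold change was -0.11 ± 0.15 (SE), with an adjusted p of 0.627 by edgeR's quasi-likelihood test. The sign changed without the smallest GST library (0.02) and without the largest GST-PTR1 library (0.03). That GST library also had the lowest share of mitochondrial reads, 5.98% against 7.22% and 8.20% in the other GST libraries. The GST-PTR1 libraries ranged from 6.05% to 7.84%. The part of this in the NEAT1 and MALAT1 values was not tested.

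PVT1 (ENSG00000249859, plus strand, chr8:128806779-129113499 of GRCh37) stood at 37.2, 29.0 and 33.1 CPM in the GST libraries and at 31.0, 31.8 and 30.8 CPM in the GST-PTR1 libraries. The GST-PTR1 values fell within the GST range. Its log2 fold change was -0.08 ± 0.12 (SE), with an adjusted p of 0.650 by edgeR's quasi-likelihood test, and 0.01 without the smallest GST library. MYC, whose gene ends 53105 bases away, stood at 908 CPM in GST and 966 CPM in GST-PTR1 (log2 fold change 0.09 ± 0.11 SE, adjusted p = 0.586 by edgeR's quasi-likelihood test).

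Across the 9, GST and GST-PTR1 libraries were separate for 5 on TMM-scaled totals, the same 5 that were called, against 40.4% of all genes tested. On library totals they were separate for 7, NEAT1 and PVT1 joining, against 43.1% of all genes tested. Scaling by totals moved the median log2 fold change over the genes tested by -0.20. Values of the members, and counts of the lists below, on that scale are read against this shift.

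**Figure D2:**
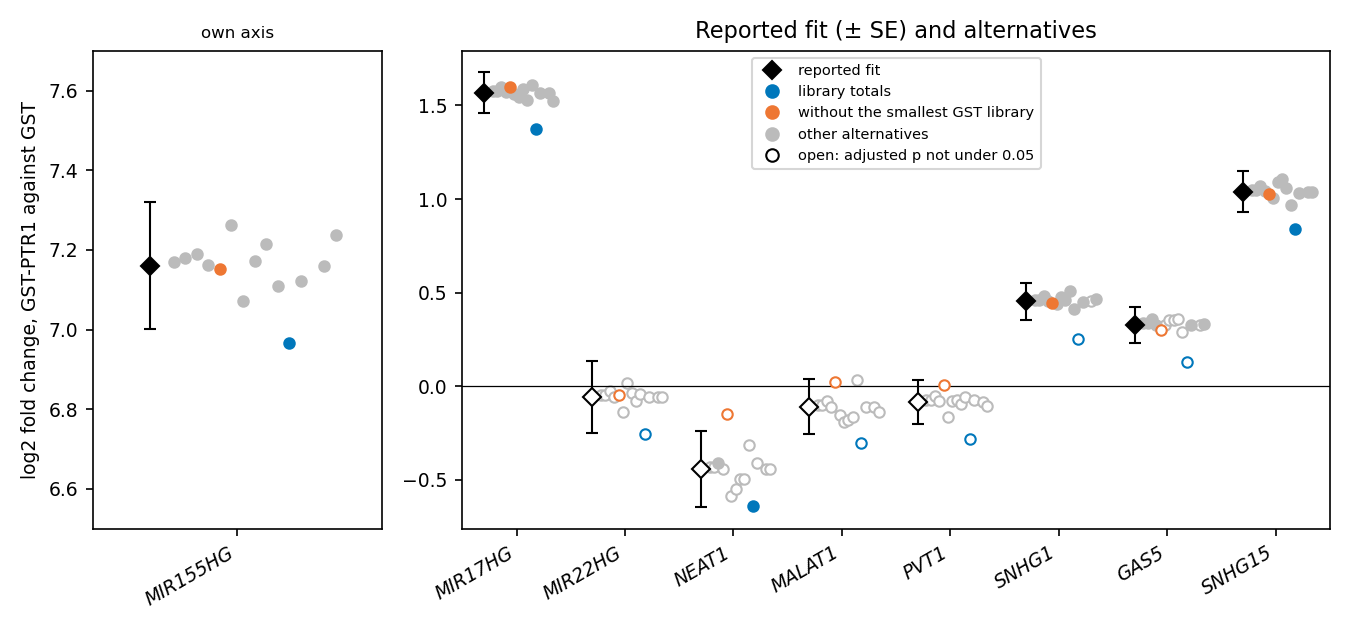
Log2 fold changes of the 9 transcripts in the reported fit (black diamonds, ± SE) and in 14 alternatives (circles), with MIR155HG on an axis of its own that does not start at 0. Open symbols were not called. MIR155HG, MIR17HG and SNHG15 stay filled throughout, GAS5 is open in 8 of 14 alternatives, and library totals (blue) lie lowest for each transcript.

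Levels of different transcripts were compared per exon length, as RPKM (reads per kilobase of exon per 1000000 reads) on library totals. The length takes all annotated exons of a gene together, such as 22767 bases for NEAT1 and 3792 for SNHG1. Which isoforms were present, and how well the kit captured each RNA, was not measured. The order below is therefore one of RPKM and not of molecules. In GST the order of the mean RPKM was NEAT1 (61.1), SNHG1 (53.1), MALAT1 (43.8), GAS5 (30.4), SNHG15 (13.9), PVT1 (6.46), MIR17HG (5.14), MIR22HG (0.888) and MIR155HG (0.450). The first 3 could not be put in order, since the NEAT1 libraries ran from 47.1 to 85.3 RPKM, the SNHG1 libraries from 51.0 to 54.6 and the MALAT1 libraries from 38.4 to 52.7. Every other pair of neighbours in this order was separate in all libraries, PVT1 only just above MIR17HG (lowest 5.55 against highest 5.50 RPKM).

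With GST-PTR1 the order was SNHG1 (63.4), MIR155HG (56.3), NEAT1 (39.3), MALAT1 (35.6), GAS5 (33.3), SNHG15 (24.9), MIR17HG (13.3), PVT1 (5.31) and MIR22HG (0.745). MIR155HG had gone from the last place to the second, that is from the 10.3 percentile of the genes tested to the 93.2 percentile in RPKM, and MIR17HG had passed PVT1. The ranges of NEAT1, MALAT1 and GAS5 overlapped, so these 3 could not be put in order, and the other neighbours were separate. The ratio of MIR155HG to MIR22HG in RPKM, which no scaling of a library can alter, ran from 0.415 to 0.645 in GST and from 68.0 to 82.4 in GST-PTR1. The ratio of NEAT1 to MALAT1 ran from 1.17 to 1.62 in GST and from 1.08 to 1.13 in GST-PTR1. By an exact permutation test on RPKM, two-sided, 3 libraries against 3 cannot go below p = 0.1, and 7 of the 9 transcripts reached that value. They are the same 7 that did not overlap on library totals, NEAT1 and PVT1 among them. On that scale 43.1% of all genes tested did not overlap. MIR22HG gave p = 0.2 and MALAT1 p = 0.5 in the same exact test.

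**Figure D3:**
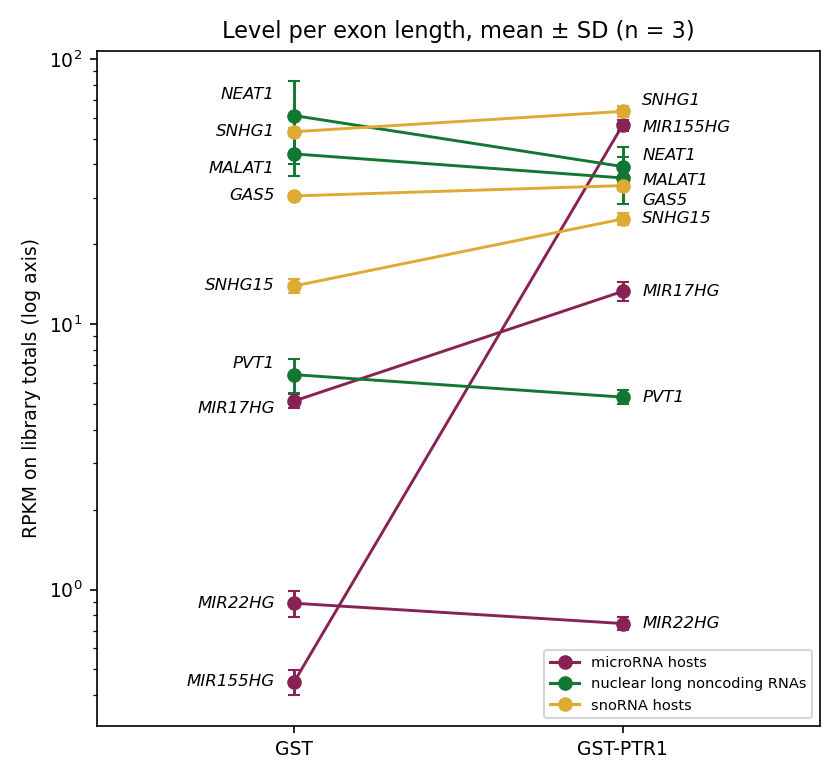
Mean RPKM on library totals (log axis) of the 9 transcripts in GST and GST-PTR1, with the SD of 3 libraries as bars. The line of MIR155HG climbs from the bottom (0.450 RPKM) to the second place (56.3 RPKM), and the other 8 lines are much flatter.

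To see whether the rest of each family moved in the same way, all genes named as microRNA or snoRNA hosts were looked at. Of 69 microRNA host genes in the table, 26 were tested, and 5 were called higher and 2 lower. Their median log2 fold change was -0.00, against 0.01 for all genes tested. Without the 3 members, 3 of 23 were higher (13.0%) and 2 lower (8.70%), near the 9.15% and 11.4% of all genes tested, with a median of -0.06.

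MIR3142HG, the host of miR-146a, a microRNA that dampens Toll-like receptor signaling, was the largest increase after MIR155HG among the hosts. It stood at 14.4, 16.4 and 16.2 CPM in the GST libraries and at 107, 122 and 122 CPM in the GST-PTR1 libraries. The treatments were well apart. Its log2 fold change was 2.90 ± 0.11 (SE), with an adjusted p of 3.23e-08 by edgeR's quasi-likelihood test. The other microRNA hosts called higher were MIR205HG (0.639 to 2.24 CPM) and MIR4527HG (1.55 to 2.76 CPM), both at low levels. MIR600HG (16.2 to 9.86 CPM) and MIR4453HG (6.75 to 4.56 CPM) were called lower. These 4 are named because few hosts were called, after their values were seen. The call of MIR4527HG was lost in 8 of 14 alternatives, that of MIR4453HG in 6, that of MIR600HG in 5 and that of MIR205HG in 0. With the smallest or the largest GST library, or the middle or the largest GST-PTR1 library, left out, 0 microRNA hosts were called lower.

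Among the snoRNA hosts 26 of 31 were tested, and 5 were called higher and 1 lower, with a median log2 fold change of 0.20, but on library totals 1 was called higher and 3 lower. Without SNHG1, SNHG15 and GAS5, 2 of 23 were higher (8.70%) and 1 lower (4.35%), against 9.15% and 11.4% of all genes tested. SNHG16, a host often raised in tumors, went from 48.4 ± 5.37 to 69.9 ± 1.46 CPM (SD, n = 3 each; log2 fold change 0.53 ± 0.11 SE, adjusted p = 0.00568 by edgeR's quasi-likelihood test). SNHG8 was the other host called higher, from 32.1 to 43.3 CPM, and its call was lost in 7 of 14 alternatives. SNHG20 fell from 19.1 ± 1.64 to 11.6 ± 0.735 CPM (SD, n = 3 each; log2 fold change -0.72 ± 0.12 SE, adjusted p = 0.00220 by edgeR's quasi-likelihood test). With any single library left out other than the middle GST-PTR1 library, 3 snoRNA hosts were called higher.

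**Figure D4:**
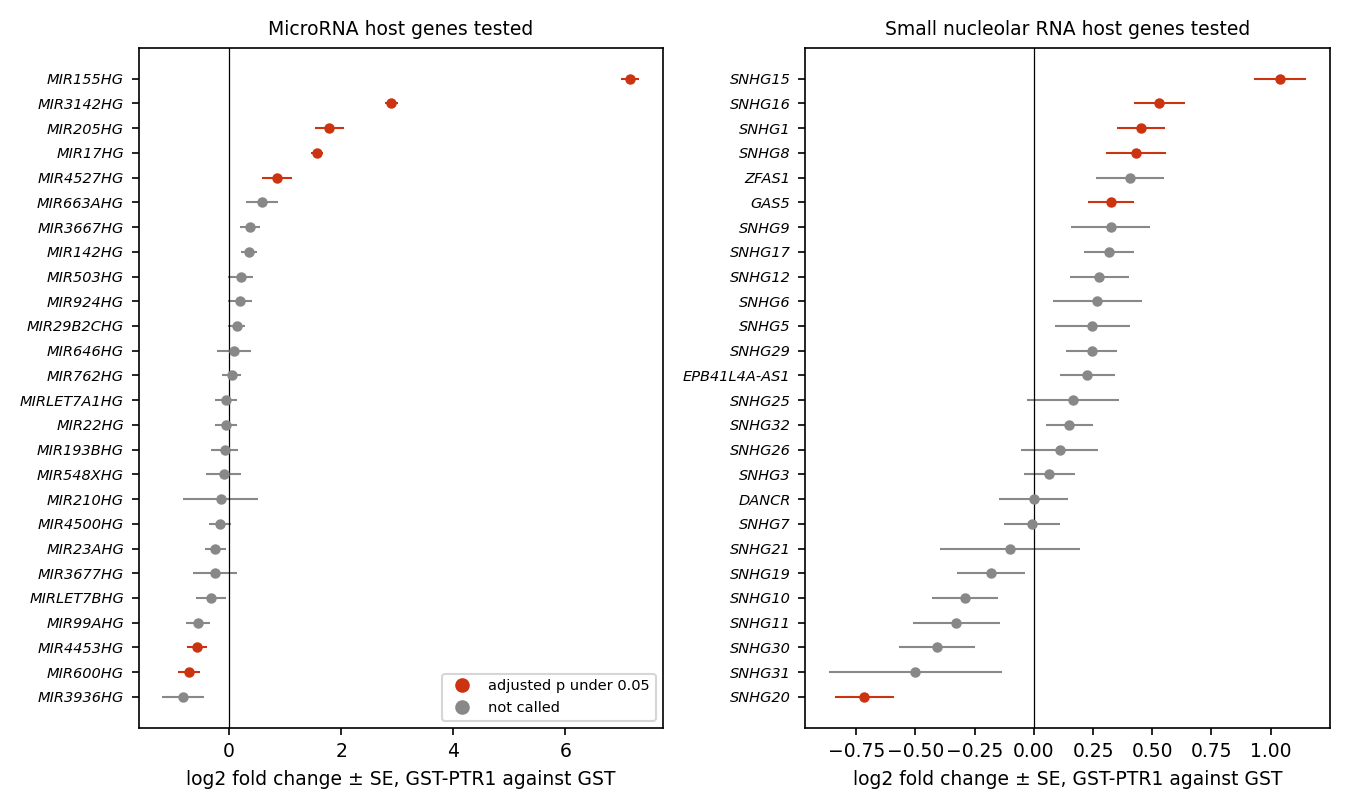
Log2 fold changes (± SE) of the 26 microRNA host genes and the 26 snoRNA host genes tested, GST-PTR1 against GST, ordered by size, with separate horizontal axes. Red points were called: 5 higher and 2 lower on the left, 5 higher and 1 lower on the right.

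The protein partners of these transcripts were then counted from lists of known factors, drawn up with earlier results of these data known. No gene of 14 paraspeckle proteins, which coat NEAT1, was called by edgeR, DESeq2 or limma voom, and 0 had an unadjusted p under 0.05. Their median log2 fold change was 0.10. HNRNPK (0.18, adjusted p = 0.230) and NUDT21 (0.14, adjusted p = 0.321) were among the lowest p-values of the list by edgeR's quasi-likelihood test.

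Of 19 genes for microRNA processing and silencing, 2 were higher and 2 lower, or 10.5% in each direction, which is near the 9.15% and 11.4% of all genes tested. The median log2 fold change was -0.02. AGO2, the Argonaute that can slice its targets, rose from 23.4 to 33.9 CPM, and XPO5, which exports hairpin precursors from the nucleus, rose from 166 to 209.6 CPM. TNRC6B, which links Argonaute to deadenylases, fell from 55.5 to 38.3 CPM, and AGO4 fell from 2.49 to 1.35 CPM. On library totals 0 of this list were higher and 4 lower, and with single libraries left out 0 to 2 were called in each direction.

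A list of 19 genes was drawn up for snoRNA-binding proteins and their assembly, and 17 were found by symbol, NHP2L1 and ZNHIT3 being missed. The list also held IBTK, which is not such a protein and was not called (log2 fold change -0.03). Of the 17, 6 were higher and 0 lower, or 35.3% against 9.15% of all genes tested, with a median log2 fold change of 0.30. NOP56, a core protein of box C/D particles, rose from 451 to 642 CPM, GAR1, a core protein of H/ACA particles, from 28.0 to 39.7 CPM, and NOLC1, a chaperone of both, from 386 to 502 CPM. None of the 17 had an unadjusted p under 0.05 in the lower direction, and DESeq2 and limma voom each called 8 higher and 0 lower. On library totals 1 was higher, and between 2 and 5 were with single libraries left out.

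Of 17 nonsense-mediated decay factors listed, 16 were found by symbol and tested. Among these 16, 6 were higher (37.5%, against 9.15% of all genes tested) and 1 lower (6.25%, against 11.4%), with a median log2 fold change of 0.28. EIF4A3 (123 to 181 CPM) and MAGOH (42.6 to 63.5 CPM), both of the exon junction complex, and the kinase SMG1 (193 to 276 CPM) had the smallest adjusted p-values of the list. UPF3A was the one that fell, from 27.8 to 21.6 CPM. On library totals 1 factor was higher and 1 lower, and with single libraries left out 1 to 5 were higher and 0 lower.

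Messenger RNAs with a place in the literature as targets of the microRNAs were counted as well, since their levels are what the seeds above act on. Of 27 miR-155 targets tested, 9 were higher and 3 lower, with a median log2 fold change of 0.09. PELI1, a ubiquitin ligase of receptor signaling, rose from 62.4 to 320.1 CPM, SOCS1, an inhibitor of cytokine receptors, from 1.65 to 18.5 CPM, and the transcription factor MYB from 54.5 to 148 CPM. The transcription factors SPI1 (20.1 to 13.5 CPM) and MAF (631 to 439.8 CPM) and the RNA-binding protein CARHSP1 (55.9 to 39.2 CPM) were the 3 that fell.

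Of 25 miR-17-92 targets, 8 were higher and 4 lower, with a median of 0.05. TNFAIP3, an inhibitor of NF-κB signaling, rose from 21.5 to 143 CPM, STAT3 from 64.1 to 197 CPM and HIF1A from 51.2 to 137 CPM. E2F2, an S phase transcription factor, was the strongest of those that fell, from 95.0 to 42.2 CPM. Of 14 miR-22 targets, 4 were higher and 1 lower, with a median of 0.13. CDK6 went from 191 to 381 CPM, BTG1 from 12.2 to 22.8 CPM and CDKN1A, which is also on the miR-17-92 list, from 22.5 to 44.9 CPM. In all 3 target lists the share called higher, from 28.6% to 33.3%, was above the 9.15% of all genes tested, and the medians were near 0. The share called lower was 11.1% for miR-155, 16.0% for miR-17-92 and 7.14% for miR-22 targets, against 11.4% of all genes tested. On library totals 7 miR-155 targets and 7 miR-17-92 targets were called lower. In that setting 4722 of all genes tested were called in either direction, against 3486 in the reported fit, and their median log2 fold change over all tested was -0.19. These counts are thus not read as a result about the targets. The lists were written from general knowledge, with earlier results of these data known, and lean to signaling genes. The activity of the microRNAs was not measured.

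The genes around the members were described to see whether a member moved alone. Of 40 tested genes within 100 kb of a member, 1 was higher (2.50%, against 9.15% of all genes tested) and 6 were lower (15.0%, against 11.4%), with a median log2 fold change of -0.11. The higher one was MRPL39, a mitochondrial ribosomal protein gene 10488 bases from MIR155HG on the opposite strand. It went from 40.3 ± 6.18 to 89.1 ± 21.0 CPM (SD, n = 3 each; log2 fold change 1.14 ± 0.17 SE, adjusted p = 9.11e-04 by edgeR's quasi-likelihood test), and it was the only gene within 100 kb of MIR155HG that could be tested.

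SLC3A2, the heavy chain of amino acid exchangers, begins 132 bases from SNHG1 on the other strand and was not called (log2 fold change 0.18, adjusted p = 0.245 by edgeR's quasi-likelihood test), and neither was WDR74 on the other side (0.36, adjusted p = 0.0519). CCM2, 12514 bases from SNHG15, was at -0.20 with an adjusted p of 0.203, by the same edgeR test. Near NEAT1, SLC25A45 fell from 22.5 to 11.7 CPM. The other neighbours called lower were TIGD3 near NEAT1, FAM89B and EHBP1L1 near MALAT1, and SMYD4 and SLC43A2 near MIR22HG. ZBTB37, whose gene overlaps GAS5 on the opposite strand without shared exon bases, was at -0.49 with an adjusted p of 0.0586 by edgeR.

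No member shared exon bases with a gene on its own strand. On the opposite strand, 4.55% of the exon bases of MALAT1, 1.16% of those of GAS5 and 1.15% of those of PVT1 lay in exons of another gene. Reads were counted by strand, and the antisense gene inside MALAT1 held at most 3 reads in any library. GAS5-AS1 held between 11 and 24 reads.

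RefSeq promoters (GRCh38.p14, from 250 bases before the start to 50 after it) were at hand for 6 of the 9 genes: MIR155HG, MIR17HG, MIR22HG, MALAT1, GAS5 and SNHG1. The AP-1 motif TGANTCA, searched on both strands (it reads the same on each), occurred in MIR155HG alone, from -60 to -54. Of all 35116 promoters in the table, 7.71% hold it. The E-box CACGTG (7.26% of all promoters), the cAMP response element TGACGTCA (1.85%) and the κB motif (5.91%) did not occur in the 300 bases of any of the 6. Bases outside this window were not searched, so sites further out, κB sites included, would not be seen. The last 130 bases of the MIR155HG window, chr21:25562065-25562194 on the plus strand, are shown for the place of the motif, which is in capitals.
MIR155HG: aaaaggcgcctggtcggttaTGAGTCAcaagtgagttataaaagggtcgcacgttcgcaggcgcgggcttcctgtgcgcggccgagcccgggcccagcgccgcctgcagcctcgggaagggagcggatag
A match of letters is a description and not a binding site, and binding was not measured here.

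Finally, genes whose levels followed each member most closely were looked for by Pearson's r of log2 CPM over the 6 libraries, among 10211 genes with a mean of at least 200 reads (10212 for MIR22HG). These libraries fall into 2 treatments, so for a member that moved with treatment r mostly reflects that split, and no p is given. MIR155HG was closest to CCR1 (r = 0.999), a chemokine receptor, and PELI1 (r = 0.999), and MIR17HG to NUS1 (r = 1.00) and NABP1 (r = 0.999). SNHG15 was closest to SAT1 and PRMT1 (r = 0.999 each), SNHG1 to CEBPG (r = 0.997) and FBXL15 (r = 0.994), and GAS5 to HNRNPA1P50 and PPP1R8 (r = 0.998 each).

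For the members that were not called the closest genes were SLCO4A1 and OSBP for NEAT1 (r = 0.999 each) and WASL and TSC1 for MALAT1 (r = 0.999 and 0.996). VPS28 and TXNRD2 were closest to MIR22HG (r = 0.964 and 0.949), and YWHAQP4 and KCP to PVT1 (r = 0.990 each). Among the members themselves, r between the 5 called higher ran from 0.919 to 0.997. These 5 were called for a difference between the same treatments, so high r among them follows from that split. NEAT1 went with MALAT1 (r = 0.864) and PVT1 (r = 0.844) over the same 6 libraries, and MALAT1 less closely with PVT1 (r = 0.596). NEAT1, MALAT1 and PVT1 were each highest in the smallest GST library. The part of that library in these r values was not tested.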

How the data were processed

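RNA-Seq reads per gene in 6 libraries of RPMI8226 cells (3 GST, 3 GST-PTR1) were analysed. The authors deposited whole-number counts made with featureCounts 1.5.0-p1 on the Ensembl release 75 annotation of GRCh37, by strand, leaving out reads with several locations or several genes on a strand. The counts are not normalized, and the submitters' processing notes also name FastQC, Subread and limma. The aligner settings are not given in the sources used here. Column names gave each library's treatment.

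The test was edgeR's quasi-likelihood test (edgeR 4.0.16 under R 4.3.3, with TMM factors, filterByExpr, glmQLFit and glmQLFTest), first tried on simulated data, and p-values were adjusted by Benjamini-Hochberg across the 16926 genes left by the filter. CPM used TMM-scaled totals unless stated, and RPKM used library totals and the deposited exon lengths. Alternatives used DESeq2 1.42.0, limma 3.58.1, other scalings and filters, a test against a fold change of 1.5, libraries thinned to the smallest total, each library left out and, added after seeing the data, a block on column numbers. Lists and families are described by counts and medians. Genes named were the members, the 3 with the smallest adjusted p of each list or family, up to 3 nearest tested neighbours and the 2 most alike per member. The other genes named were chosen after their values were seen, and 1 gene that the rule names is not reported here. Members and lists were chosen with earlier results of these data known. Totals of 15202503 to 44688737 counts limit precision for low genes.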

Additional observations from a re-analysis of the deposited data

How the results depend on the processing

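MIR155HG, MIR17HG and SNHG15 kept their direction and their call under all 14 alternatives. On library totals, members called higher went from 5 to 3 and lower from 0 to 1: SNHG1 (0.25) and GAS5 (0.13) were no longer called, and NEAT1 was called lower (-0.64). A filter of 1 count in any library also called 1 member lower, NEAT1 (-0.41), with an SE of 0.127 in place of 0.202. Against a fold change of 1.5, 3 members were called higher, and SNHG1 (0.45) and GAS5 (0.33) were not. On library totals 1 snoRNA host was higher and 3 lower, and against 1.5-fold 1 was higher and 0 lower. MicroRNA hosts called lower, 2 as reported, were 0 against 1.5-fold and 1 after thinning. On library totals HNRNPK (-0.020), NUDT21 (-0.052) and MYC (-0.11), none of them called, changed sign. With single libraries left out, log2 fold changes ran from 0.29 to 0.36 for GAS5 (never called), from -0.14 to 0.017 for MIR22HG, from -0.19 to 0.031 for MALAT1 and from -0.17 to 0.0063 for PVT1, while microRNA hosts called lower ran from 0 to 2 and snoRNA hosts called higher from 3 to 5. The fits with a library left out also had fewer samples, and the cause of these changes was not tested. The replicate numbers of the sample titles could not be matched to columns, but 2 column numbers occur in both treatments. Fits of those 4 libraries, chosen after seeing the data, with that number as a replicate block and without it called 3318 and 3638 genes in all and 4 members higher each. GAS5 was not called (0.32 and 0.33), PVT1 changed sign (0.015 and 0.013), and 3 snoRNA hosts were higher in both. No other call of a member changed. Over genes, the difference between the 2 numbers correlated at r = -0.03 across treatments, and nothing says that a number marks a shared culture. Low counts limit the precision of MIR22HG, with as few as 42 in a library, and of MIR155HG in GST and MIR205HG, with as few as 11 each.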
